A study of Mus musculus with 6 samples.

Results

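Among 47 genes of the bone morphogenetic protein (BMP) and transforming growth factor beta (TGF-beta) pathway, binding sites of the transcription factor SP8 in mouse forelimb ectoderm lay inside or within 10 kb of 6: Bmp8a, Tgfb1, Smad2, Smad6, Smad7 and Bambi. This is 12.8% of them, against 6.48% of all protein-coding genes, and without the 4 members on chromosome 18 it is 3 of 43 or 6.98%. A site within 100 kb was found for 0 of 10 receptor genes and 0 of 4 Id genes. It was also found for 0 of the 4 genes of the secreted antagonists Noggin, Chordin, Gremlin 1 and Follistatin. Of protein-coding genes 20.1% had one, so that counts of 0 in groups of 10 or 4 genes say little. The 47 genes were taken as a named list of BMP, GDF, TGF-beta and activin ligands, receptors, Smads, Id genes and antagonists, out of 21523 placed protein-coding genes, and all of them were found in the gene table. A gene was counted when the centre of a peak of the authors' SP8 list, which holds 1451 peaks, lay inside it or within 10 kb, or within 100 kb, of its start or end.

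The series comprised 6 ChIP-seq libraries of forelimb bud ectoderm from embryos at stage E10.5 on the C57BL6J background. There were 2 anti-FLAG immunoprecipitations (FLAG M2 antibody) and 2 inputs from embryos labelled Sp8FL KI, described as homozygous for a FLAG-tagged Sp8 allele, so that the tagged protein replaced the untagged one in every SP8 library. An H3K4me2 immunoprecipitation and its input came from wild-type (WT) embryos. The ectoderm of 50 forelimb buds was pooled for each replicate, so that single embryos cannot be told apart. Every value below comes from 1 deposited list named for SP8 replicate 1, with a q threshold of 0.1 and a fold threshold of 3 in its name. It gives a position and a running number for each peak and no height, count or depth, so that a gene without a peak cannot be told apart from a gene bound below the calling threshold. The other 5 libraries were not analysed here, no peak has a replicate check, and the labelled tissue could not be checked against marker genes because no expression was measured.

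In this pathway, dimeric ligands of the BMP, GDF, TGF-beta and activin families bring together type I and type II receptor kinases on the cell surface. The receptors phosphorylate Smad1, Smad5 and Smad9 after BMP binding, or Smad2 and Smad3 after TGF-beta or activin binding, and these enter the nucleus with Smad4. Smad6 and Smad7 restrain the pathway inside the cell, Bambi does so at the membrane as a receptor-like protein without a kinase, and Noggin, Chordin, Gremlin 1 and Follistatin hold ligands outside the cell. In the limb bud, BMP signals received by the ectoderm are known for their part in forming the apical ectodermal ridge and the ventral ectoderm, and SP8 is a zinc-finger protein of the SP and KLF family that the ridge requires.

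The count within 10 kb, 6 of 47 genes or 12.8%, stood against 6.48% of all protein-coding genes. Within 100 kb it was 9 of 47 or 19.1%, with Bmp7, Smad4 and Smad9 added, against a background of 20.1% in the full list. With the first 725 peaks it was 8 of 47 (17.0%) against 10.7%, and with peaks at least as wide as the median 7 of 47 (14.9%) against 11.4%. Among genes of member length the backgrounds were 6.7% within 10 kb and 21.4% within 100 kb. Inside the gene itself a peak centre lay in 4 of 47 genes or 8.51% (Smad2, Smad6, Smad7 and Bambi), against 3.47% of protein-coding genes. The background inside was not matched for gene length. As the protein-coding gene nearest to a peak within 100 kb, 7 members were counted, or 14.9%, against 5.52%. The 4 members on chromosome 18, Smad2, Smad4, Smad7 and Bambi, all had a peak within 100 kb, and 3 of the 6 genes with a peak within 10 kb were among them. Without that chromosome the counts were 3 of 43 genes (6.98%) within 10 kb, 5 of 43 (11.6%) within 100 kb and 1 of 43 (2.33%) inside, with backgrounds of 6.48%, 20.2% and 3.44%. The count of members nearest to a peak was then 4 of 43 (9.3%) against 5.49%. Protein-coding genes of chromosome 18 as a whole had a peak within 10 kb in 6.46% of cases and within 100 kb in 16.8%. Gene shares are given as descriptions without a test, since they come from 1 list and neighbouring genes share peaks.

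**Figure D1:**
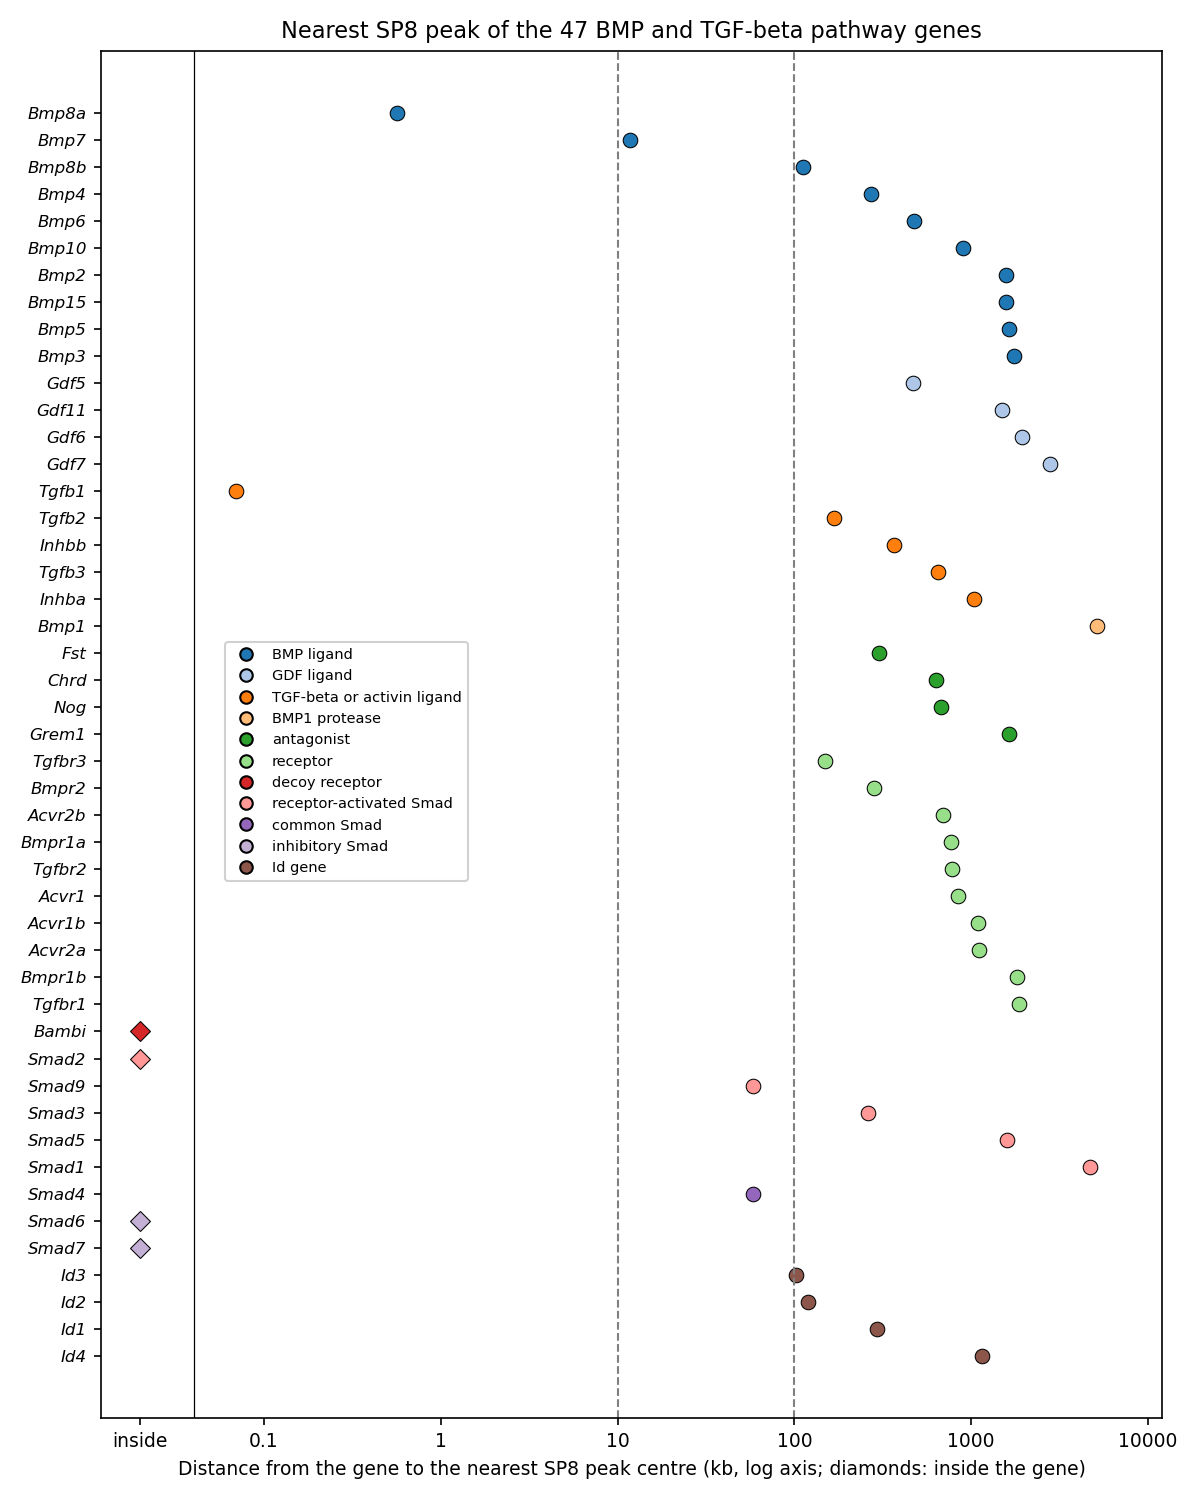
Distance from each of the 47 genes to the nearest SP8 peak centre, in kb on a log axis, with diamonds for a centre inside the gene, colours for the role of the gene and dashed lines at 10 and 100 kb. Smad2, Smad6, Smad7 and Bambi hold a peak, all 10 receptor genes lie beyond 100 kb, and Bmp1 has the largest distance, 5131 kb.

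Of the 10 BMP ligand genes, 2 had a peak within 100 kb, a share of 20.0% that does not stand apart from the 20.1% of all protein-coding genes. Bmp7, which encodes a BMP made by the ridge and other limb cells, had 2 peaks on the side of its lower coordinate (gene at chromosome 2, 172868012 to 172940321). The nearer, peak 1296 at 172856062 to 172856369, was centred 11.8 kb from the gene and was 307 bp wide. The farther, peak 7 at 172789052 to 172789651, was 78.7 kb away and 599 bp wide, a width reached by 12.7% of all peaks. No whole protein-coding gene lay between Bmp7 and either peak, and Bmp7 was the nearest protein-coding gene to both.

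Bmp8a encodes a BMP best known from germ cells (chromosome 4, 123312645 to 123343252, minus strand). Peak 270, at 123311905 to 123312257, was centred 0.564 kb outside the gene and was 352 bp wide. Because the gene runs on the minus strand, this peak sat beyond the 3′ end, 31.2 kb downstream of the listed start. Its neighbour and relative Bmp8b lies 186.6 kb away on the plus strand, and its own nearest peak was 111.9 kb from the gene and close to Mycl.

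The other 8 BMP ligand genes had no peak within 100 kb. Bmp4, a ligand of ridge and mesenchyme, had its nearest peak 271.4 kb away, and for Bmp2 the distance was 1578 kb. Bmp6 (472.0 kb), Bmp10 (903.2 kb), Bmp15 (1579 kb), Bmp5 (1645 kb) and Bmp3 (1743 kb) lay in between or farther out. The 4 GDF genes, whose products include the joint-forming GDF5, were at 467.2 kb (Gdf5), 1500 kb (Gdf11), 1926 kb (Gdf6) and 2792 kb (Gdf7). Bmp1, which despite its name encodes a metalloprotease that cleaves procollagen and Chordin, was 5131 kb from any peak, and 96.4% of protein-coding genes were nearer to one.

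Tgfb1 was the only member, of the 32 with a promoter sequence in the RefSeq table, whose promoter window was overlapped by a peak. It encodes the TGF-beta 1 ligand (chromosome 7, 25687002 to 25705077, plus strand). Peak 522, at 25686711 to 25687154, was centred 0.0695 kb upstream of the listed start, was 443 bp wide and covered all 300 bases of the window, which runs from 250 bases before the start to 50 after it. The share of protein-coding genes with an overlapped window was 2.3%, and 1 of 32 members is 3.12%. The other TGF-beta genes had their nearest peak at 167.3 kb (Tgfb2, which was still the nearest protein-coding gene to it) and 647.5 kb (Tgfb3). The activin subunit genes Inhbb and Inhba were at 367.1 and 1031 kb.

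The bases upstream of the start of Tgfb1 are shown because the whole stretch lies in a peak, beside those of Smad6, whose peak lies inside the gene, and of Bmp4 and Id3, which had no peak within 100 kb. Each is 250 bases, 5′ to 3′ on the strand of the gene, from RefSeq on GRCm38.p6, and ends at the base before the listed start. Capitals mark GGGCGG, the GC box recognised by SP and KLF proteins, read on both strands, so that its complement appears as CCGCCC. The positions are chr7:25686752-25687001 for Tgfb1, chr9:64022060-64022309 for Smad6, chr14:46390670-46390919 for Bmp4 and chr4:136143572-136143821 for Id3.

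Tgfb1: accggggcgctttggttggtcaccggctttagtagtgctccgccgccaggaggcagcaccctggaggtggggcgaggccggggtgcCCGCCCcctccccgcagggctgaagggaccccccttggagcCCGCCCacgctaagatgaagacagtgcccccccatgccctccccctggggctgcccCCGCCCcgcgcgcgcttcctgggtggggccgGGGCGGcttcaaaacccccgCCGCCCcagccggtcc

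Smad6: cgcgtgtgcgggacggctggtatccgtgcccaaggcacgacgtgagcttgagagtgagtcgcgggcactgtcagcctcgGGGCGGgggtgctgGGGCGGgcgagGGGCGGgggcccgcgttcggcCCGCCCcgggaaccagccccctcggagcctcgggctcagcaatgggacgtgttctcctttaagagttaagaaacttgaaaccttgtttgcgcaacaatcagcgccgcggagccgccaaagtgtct

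Bmp4: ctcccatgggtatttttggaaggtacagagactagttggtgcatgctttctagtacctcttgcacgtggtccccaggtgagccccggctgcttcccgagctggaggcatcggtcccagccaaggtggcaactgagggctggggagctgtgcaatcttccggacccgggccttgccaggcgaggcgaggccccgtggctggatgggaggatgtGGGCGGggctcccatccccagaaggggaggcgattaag

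Id3: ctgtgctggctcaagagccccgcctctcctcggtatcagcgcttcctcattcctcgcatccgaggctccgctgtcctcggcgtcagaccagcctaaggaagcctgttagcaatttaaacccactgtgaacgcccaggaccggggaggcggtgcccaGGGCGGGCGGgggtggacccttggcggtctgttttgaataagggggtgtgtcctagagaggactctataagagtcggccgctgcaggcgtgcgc

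The Tgfb1 stretch held 5 GC boxes and 75.2% G and C, the Smad6 stretch 4 and 66.8%, that of Id3 2 overlapping ones and 62.8%, and that of Bmp4 1 and 63.2%. All 4 stretches thus carried the letters, with or without a peak. Over the 300-base windows, GGGCGG on either strand was found in 25 of 32 members (78.1%), against 49.8% of 17274 protein-coding genes and 92.7% of the 398 whose window a peak overlapped. The median G and C content was 67.0% for members, 57.3% for protein-coding genes and 69.0% for those overlapped by a peak, taking the richest window where a gene had several.

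Other motifs were read in the same windows on both strands. CACCC, the other core of the SP and KLF family, stood in 24 of 32 members (75.0%) against 62.0% of protein-coding genes. GGCGCC, which BMP Smads can bind, stood in 10 of 32 (31.2%) against 17.6%. TAATTA, a homeodomain core, was in 1 member, Bmp15 (3.12% against 5.3%). The E-box CACGTG was in 4 (12.5% against 9.02%) and the looser E-box CAGNTG in 9 (28.1% against 51.9%). GTCTAGAC, the palindrome that Smad3 and Smad4 can bind, was in 1 member, Smad6, where it spanned the listed start, and in 0.266% of protein-coding genes. No motif searched contains another, although neighbouring matches can share bases, and each is a match of letters in a window, not a measured site. The windows of 15 members, among them Bmp7, Smad2, Smad4, Smad7 and Bambi, were not used.

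None of the 10 receptor genes had a peak within 100 kb. Tgfbr3, the co-receptor betaglycan, was nearest with 148.3 kb, followed by Bmpr2, the type II BMP receptor, with 282.2 kb. The type I BMP receptor genes Bmpr1a and Bmpr1b were at 767.0 and 1816 kb, and Acvr1 at 837.4 kb. Acvr2b (695.7 kb), Tgfbr2 (777.2 kb), Acvr1b (1099 kb), Acvr2a (1102 kb) and Tgfbr1 (1853 kb) completed the group. The median distance of the receptor genes was 807.3 kb, against 480.8 kb for all protein-coding genes and 647.5 kb for all 47 members. The count of 0 of 10 genes stands beside the background share of 20.1%, the group is small, and the difference was not tested.

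Of the 8 Smad genes, 5 had a peak within 100 kb, 62.5% against the background of 20.1%. A peak lay inside 3 of them, 37.5% against 3.47%, a background not matched for gene length. The peaks of Smad4 and Smad9 were nearer to other genes, so that 3 Smad genes were nearest to a peak, 37.5% against 5.52%. Smad2, Smad4 and Smad7, 3 of the 5 with a peak within 100 kb, are on chromosome 18. Both inhibitory Smad genes held a peak. Smad7, which blocks type I receptors, lies at chromosome 18, 75367365 to 75395935. Peak 511, at 75367197 to 75367400, was centred 0.0665 kb outside the lower boundary and was 203 bp wide, close to the smallest width in the list of 199 bp. Peak 1426, at 75380296 to 75380728, lay inside the gene, 13.1 kb from that boundary and 432 bp wide. A further one, peak 1301 at 75309468 to 75309672, was 57.8 kb from Smad7 and nearer to Dym.

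Smad6, the inhibitor that acts mainly on BMP signals (chromosome 9, 63953076 to 64022085, minus strand), held peak 233 at 64017039 to 64017522. It was 483 bp wide and centred 4.78 kb downstream of the listed start, inside the gene. The same peak was the nearest to Smad3, the TGF-beta and activin Smad whose gene lies 195.1 kb from Smad6, at a distance of 259.3 kb. It was the only peak within 1000 kb of either gene.

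Smad2, the other TGF-beta and activin Smad (chromosome 18, 76241090 to 76311748), held peak 772 at 76241234 to 76241560, centred 0.307 kb inside its lower boundary and 326 bp wide. Smad4, the partner of all receptor-activated Smads (73634790 to 73703791 on the same chromosome), had no peak nearer than peak 721, at 73762202 to 73762444. That peak was 242 bp wide, 58.5 kb from Smad4, with 1 whole protein-coding gene in between, and only 2.63 kb from Me2. Smad2, Smad4 and Smad7 lie in a row, with 845.2 kb between Smad7 and Smad2 and 1664 kb between Smad4 and Smad7. At these gaps their windows of 100 kb do not meet, so that they could not share a peak.

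The BMP Smad genes Smad1, Smad5 and Smad9 had no peak within 10 kb. Only 6.48% of protein-coding genes had one, so that this absence in so few genes says little. Smad9 (chromosome 3, 54755455 to 54801662, plus strand) had peak 72, at 54696780 to 54697276, 58.4 kb away, and peak 387, at 54692788 to 54692997, 62.6 kb away, both upstream and both inside Supt20, with 2 whole protein-coding genes in between. Smad5 and Smad1 were 1603 and 4705 kb from their nearest peak, the latter a distance that 95.8% of protein-coding genes fall within.

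The 4 Id genes are direct transcriptional targets of BMP signals and encode inhibitors of basic helix-loop-helix proteins. A peak within 100 kb was found for 0 of 4, beside the same 20.1%, and 2 lay just outside that window. Id3 was 102.5 kb from peak 1396, which was centred 0.0315 kb outside Tcea3. Id2 was 118.9 kb from a peak inside Kidins220, Id1 295.0 kb from a peak inside Xkr7, and Id4 1155 kb from a peak inside Dek. Id3, Bmp8b and Id2 were the nearest beyond the limit, and Smad9 and Smad4, at 58.4 and 58.5 kb, the farthest within it. No member had its nearest peak between 58.5 and 102.5 kb, but these ends were set by the members themselves. Of protein-coding genes, 14.6% had a peak at least as near as Smad4 and 20.4% at least as near as Id3, so that few fall in between.

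A peak within 100 kb was found for 0 of the 4 genes of secreted antagonists, a number too small to read against the 20.1% of all protein-coding genes. Fst, which encodes the activin-binding Follistatin, was at 299.2 kb, Chrd (Chordin) at 633.2 kb, Nog (Noggin) at 674.3 kb and Grem1 (Gremlin 1) at 1644 kb.

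Bambi, the membrane antagonist, had, like Smad7, 3 peaks within 100 kb, the most of any member. The gene spans 3507011 to 3516404 on chromosome 18. Peak 1140, at 3507668 to 3507976, was centred 0.811 kb inside its lower boundary and was 308 bp wide. Peak 850, at 3509076 to 3509334, followed after a gap of 1.1 kb, 2.19 kb inside the gene and 258 bp wide. Peak 169, at 3566488 to 3567096, lay 50.4 kb beyond the upper boundary and was 608 bp wide, the widest of the peaks near a member. Bambi was the nearest protein-coding gene to all 3.

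**Figure D2:**
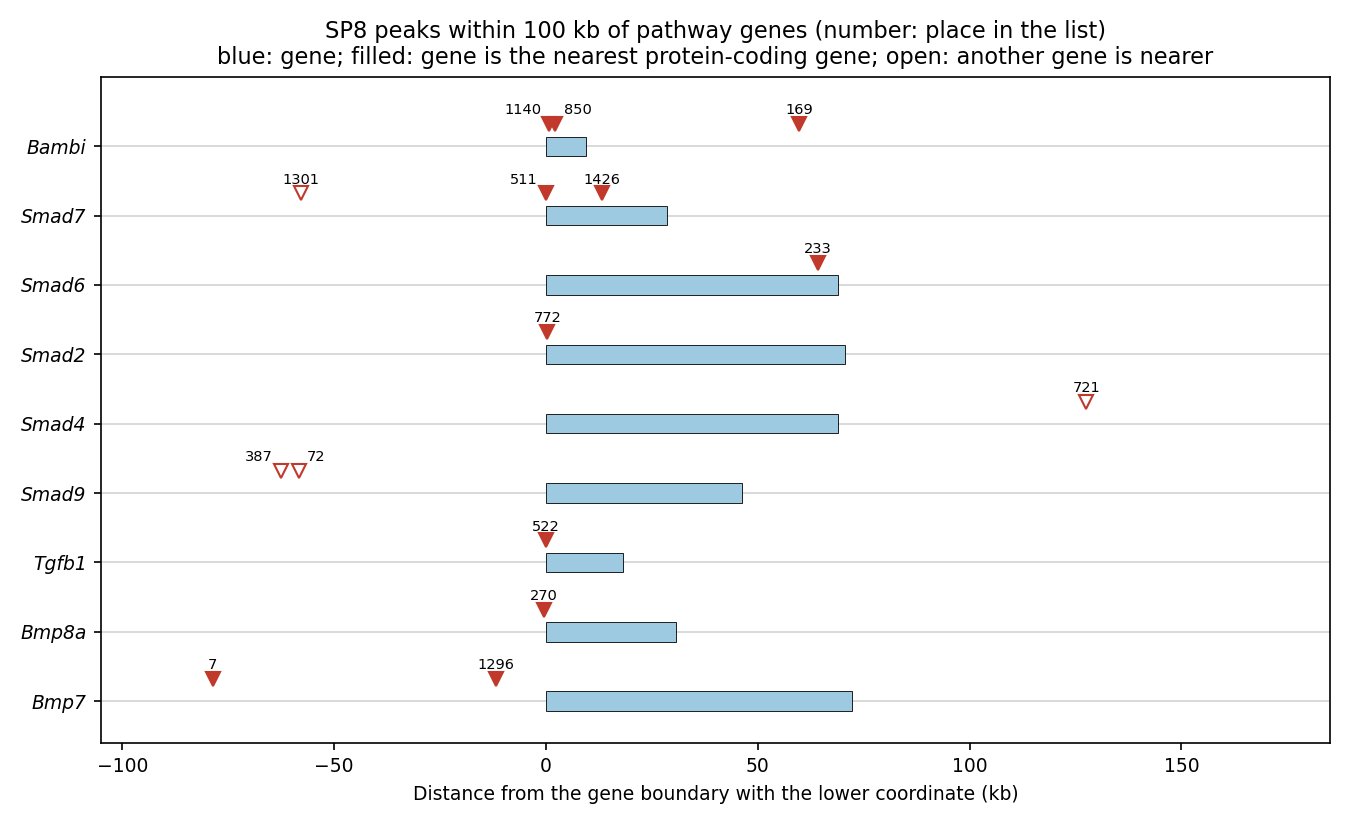
The 15 SP8 peaks within 100 kb of a member, drawn as triangles at their centres against the gene (blue bar, to scale), with distance in kb from the boundary of lower coordinate on the x axis and the list number above each. Filled triangles, 11 in all, mark peaks to which the member is the nearest protein-coding gene, and the 4 open ones, at Smad4, Smad7 and Smad9, are nearer to another gene.

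In all, 15 peaks lay within 100 kb of a member, 1.03% of the list, and no 2 members shared one. The windows of 100 kb meet only for Bmp8a and Bmp8b, 186.6 kb apart, and for Smad3 and Smad6, 195.1 kb apart. The lack of sharing thus largely follows from the positions of the genes. Of the 9 genes with a peak within 100 kb, 5 had 1 peak, 2 had 2 and 2 had 3. There were 5 peaks inside a member and 3 within 1 kb outside, so that all 8 peaks counted in the 10 kb window lay inside or within 1 kb of the gene. Of all protein-coding genes, 4.78% had a peak inside or within 1 kb and 6.48% within 10 kb. Most genes of the wider count were thus also in the narrower one, and the members do not stand apart in this. The 7 other peaks near members were between 11.8 and 78.7 kb away. The 8 peaks near Smad2, Smad4, Smad7 and Bambi were among the 49 of chromosome 18.

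Peaks near members had a median width of 326 bp, with a 95% interval of 242 to 483 bp for that median. The interval held the median of all peaks, which was 336 bp (329 to 345). The narrowest was 203 bp wide, beside Smad7, and the widest 608 bp, beyond Bambi. Their list numbers ran from 7, at Bmp7, to 1426, inside Smad7, with a median of 522 (233 to 1140), against 726 for all peaks. What the number stands for is not stated, and the intervals cover the spread over peaks only. They treat peaks as separate draws, although Bambi and Smad7 had 3 each and the full list includes these 15. The intervals are therefore no test of a difference.

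**Figure D3:**
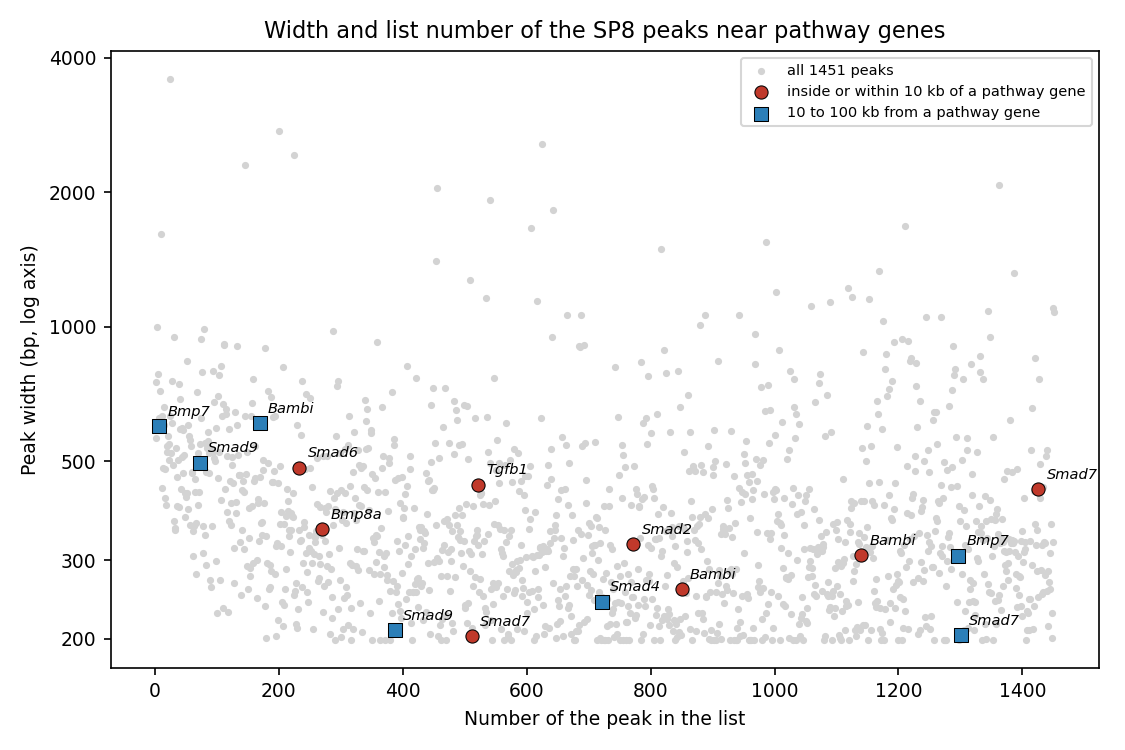
Width in bp (log axis) against list number for all 1451 peaks (grey), with the 8 peaks inside or within 10 kb of a member as red circles and the 7 at 10 to 100 kb as blue squares, each named by its gene. The member peaks spread over the list from number 7 to 1426 and none is wider than 608 bp.

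Beyond 100 kb, 5 members had their nearest peak within 200 kb, 8 between 200 and 500 kb, 8 between 500 and 1000 kb and 17 farther than 1000 kb. For all protein-coding genes the share beyond 1000 kb was 30.7%, and for members it was 36.2%. The 38 members without a peak in reach had 38 different nearest peaks. Of these peaks, 24 lay inside another protein-coding gene, and 1, that of Tgfb2, had the member as its nearest gene. These members were picked for lying beyond 100 kb from any peak, so both counts partly follow from that choice. The share of all peaks inside a protein-coding gene is not given here.

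A further 51 genes of the pathway (remaining ligands, receptors, co-receptors, antagonists, regulators and target genes) were counted in the same way. This list was written from general knowledge when peaks near Msx1 and Msx2 were already known. A peak lay within 10 kb of 8 of them, 15.7% against 6.48%, and within 100 kb of 21, 41.2% against 20.1%. Both counts include Msx1 and Msx2, so that the difference from the background is partly built in. Over all 51 genes, 6 were the nearest protein-coding gene to a peak within 100 kb, 11.8% against 5.52%. Of the 13 genes between 10 and 100 kb, 0 were, among them the ligand genes Inhbc, Inhbe, Inha, Gdf15, Gdf9 and Lefty2. The share for all protein-coding genes in that band is not given here, so this 0 cannot be read as particular to the pathway.

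**Figure D4:**
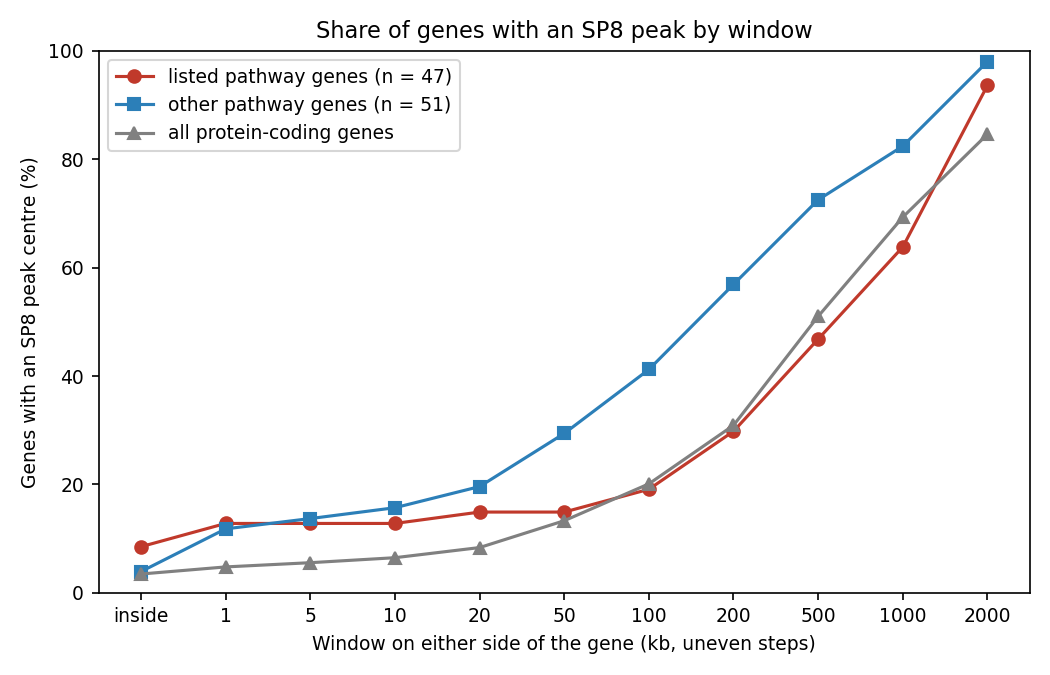
Share of genes in percent with a peak centre inside or within a window of up to 2000 kb, for the 47 members (red circles), 51 other pathway genes (blue squares) and all protein-coding genes (grey triangles); the steps on the x axis are uneven. The members' share is above that of protein-coding genes up to 50 kb (14.9% against 8.35% at 20 kb and 13.3% at 50 kb), slightly below it at 100 and 200 kb, below it at 500 and 1000 kb (63.8% against 69.3% at 1000 kb) and above it at 2000 kb (93.6% against 84.6%).

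Among the 8 other genes with a peak within 10 kb, 6 had it inside or within 1 kb. For all protein-coding genes the shares were 6.48% within 10 kb and 4.78% inside or within 1 kb. Tgif2, a co-repressor of TGF-beta Smads, held peak 165 at 0.113 kb from its boundary (chromosome 2, 156839806 to 156840053). The centre of that peak also lay inside another protein-coding gene, LOC115486128. The tie was given to LOC115486128 as the first by position, so that Tgif2 was not counted as the nearest gene. Smurf2, a ubiquitin ligase that acts on Smads and receptors, had peak 533 centred 0.0495 kb outside (chromosome 11, 106920679 to 106920914). Skil, which encodes the Smad co-repressor SnoN, had peak 1161 at 0.54 kb (chromosome 3, 31094319 to 31094717).

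The transcription factor genes Hey1, Msx2 and Msx1, which can respond to BMP signals, had peaks at 0.159, 0.357 and 4.25 kb. The Hey1 peak was assigned to another protein-coding gene, LOC115489673, as its nearest. Rgma, a gene for a BMP co-receptor, held peak 401, 15.7 kb from its nearer boundary (chromosome 7, 73391039 to 73391413), and Ltbp2, of the latent TGF-beta binding protein family, had peak 423 at 7.19 kb. The windows of Tgif2, Smurf2 and Msx2 were overlapped by a peak, 3 of the 36 other pathway genes with a promoter sequence (8.33% against 2.3%). A peak near Msx2 was already known when the list was written, so that this share is partly built in.

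Some relatives of these genes differed in their distances and others were alike. These pairs were chosen after their values were seen and are given without a test. Smurf1 was 1118 kb from its nearest peak where Smurf2 was 0.0495 kb, Ski 268.8 kb where Skil was 0.54 kb, and Tgif1 406.4 kb where Tgif2 held one. Smad3 was 259.3 kb away where Smad2 held a peak, whereas Smad6 and Smad7 each held one. Msx1 and Msx2 were both near a peak (4.25 and 0.357 kb), and Smad1 and Smad5 were both far from any (4705 and 1603 kb).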

How the data were processed

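The authors' peak list for SP8 replicate 1 was the 1 file used, out of a design of 6 ChIP-seq libraries in 4 groups. The submitters' processing notes name FastQC, SAMtools, TopHat2, deepTools and MACS2, with no role or version, and the builds GRCm38 and mm10. The control library and any pooling are not given in the sources used here. The deposited list holds positions and a number from 1 to 1451 in file order, treated as a score of unstated meaning. Sequencing depth is unknown.

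Genes were the 21523 protein-coding genes on chromosomes 1 to 19 and X of the RefSeq table of GRCm38.p6 with a listed start of at least 3 Mb. A peak was placed by its centre, at positions as deposited, and its distance to a gene was 0 inside it. Where genes were equally near to a peak, the first by position was taken as its nearest gene. Width is end minus start. Strand and promoter sequences came from the RefSeq promoter table of the same build, for 32 of 47 members. Intervals of medians are 95% order-statistic intervals. The distance script was tested on planted positions, in Python 3.11.15 with pandas 2.3.3 and numpy 2.4.6.

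The members, the lists and the alternatives were chosen with earlier results of these data known. All members are named, those with a peak within 100 kb with each peak, and other pathway genes where a peak lay within 10 kb. No test was made, because 1 list without counts allows none over samples. Motifs were searched in promoter windows only, since no sequence of the peaks was used.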

Additional observations from a re-analysis of the deposited data

How the results depend on the processing

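Of 40 alternatives over 10 results, 36 set out at the start and 4 chosen after seeing the data (those without chromosome 18), 29 left a count within 1.5 times its value or a median within its interval. The count of members with a peak inside the gene fell from 4 to 1 with the first 725 peaks of the list (background 1.64%), to 2 with peaks at least as wide as the median (1.83%) and to 1 without chromosome 18. The count within 10 kb fell from 6 to 3 without chromosome 18, and was 2 of 32 genes when distance was taken from the listed start only (background 4.36%). The count within 100 kb fell from 9 to 5 without chromosome 18, was 4 of 32 from the listed start only (17.9%) and rose to 14 with a window of 200 kb (30.9%). Members nearest to a peak fell from 7 to 4 without chromosome 18 (5.49%). Peaks near members numbered 9 of the first 725, where the whole list gave 15. Other pathway genes within 10 kb fell from 8 to 5 with the wider peaks (3.49%). These settings hold fewer peaks, fewer genes or a wider window. The alternative from the listed start both covers only 32 of 47 members, 68.1%, and changes the distance, by which Bmp8a drops out (its peak is 31.2 kb from the start). Counts within 1.5 times can still shift against their background: within 100 kb the first 725 peaks gave 17.0% of members against 10.7%, and the wider peaks 14.9% against 11.4%, where the full list gave 19.1% against 20.1%.

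No paired analysis was possible because the values used here come from 1 library, and leaving out replicates had nothing to act on. The list gives neither depth nor peak height, which limits every statement about a gene without a peak.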
